A study of Mus musculus with 18 samples.

Results

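The 10 genes described here encode GTPases whose mRNAs are induced by interferon-gamma, and they were taken by symbol from the 55469 genes of the deposited tables. They comprise 6 guanylate-binding proteins (Gbp2, Gbp3, Gbp4, Gbp5, Gbp6 and Gbp7) and 4 immunity-related GTPases (Igtp, Irgm1, Irgm2 and Iigp1). All 10 were present in all 4 tables, and all 10 passed the filter on low values, which was a mean of 10 normalized counts in the table. RNA sequencing covered 18 libraries of prostate from male C56NL/6N mice, in 6 groups of 3 mice, at 10 and at 30 weeks of age. The WT mice were labelled ELAC2+/+ and matched for age and litter. The KO mice were homozygous for loss of exon 8 of Elac2, which encodes the tRNA 3′ end-processing enzyme, through Pb-Cre. The probasin promoter drives this Cre in prostate epithelium, so the stromal, vascular and immune cells of a KO prostate were not targeted. The A537T mice were homozygous in the whole body for the change of the same name in Elac2, a threonine in place of an alanine. The ventral and lateral lobes of each prostate were pooled. The question for these genes was whether interferon-type transcripts changed with the Elac2 mutations, since the study followed inflammation of the prostate in these lines.

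Interferon-gamma binds a receptor of the IFNGR1 and IFNGR2 chains, and the kinases JAK1 and JAK2 pass the signal to transcription factors that bind gamma-activated sequences upstream of target genes. Complexes that hold IRF9, and the factor IRF1, bind the related interferon-stimulated response element, so type I interferon reaches many of the same genes. The guanylate-binding proteins and immunity-related GTPases assemble on membranes that enclose intracellular bacteria and parasites and help to break them open. Irgm1, Irgm2 and Igtp (also called IRGM3) are the regulatory members that sit on the membranes of the cell itself, whereas Iigp1 (Irga6) is an effector that loads onto the pathogen vacuole. Gbp5 is also known for promoting inflammasome assembly.

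The members lie in a few clusters of the GRCm38 genome. Gbp5, Gbp7, Gbp3 and Gbp2 follow each other on the forward strand of chromosome 3, and the outermost annotated gene bodies are Gbp5 at chr3:142493978-142522344 and Gbp2 at chr3:142620602-142638008. Gbp4 (chr5:105115767-105139586) and Gbp6 (chr5:105270702-105293698) lie on the reverse strand of chromosome 5. Irgm1 lies at chr11:48861968-48871683 on the reverse strand. Igtp (chr11:58199556-58207591) and Irgm2 (chr11:58199618-58222782) are annotated over each other on the forward strand, with 162 exonic bases in common. Of the 31-base words in Gbp6 transcripts, 74.2% also occur in another gene, 67.8% in the predicted gene Gm43302 and 51.4% in Gbp10. For the other members this share was between 2.20% (Irgm1) and 15.9% (Igtp, all of it shared with Irgm2). Counts of Gbp6 are therefore uncertain between these near-identical genes, and its sum with Gbp10 and Gm43302 is given beside it.

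Promoter sequence was read from RefSeq (GRCm38.p6) because the levels of the members varied together across libraries. Of the 10 members, 7 had a promoter in the table used here (Gbp2, Gbp3, Gbp5, Gbp7, Igtp, Irgm1 and Irgm2). In the 250 bases before the start, all 7 held the letters GAAANNGAAA on one strand or the other, the core of the interferon-stimulated response element, against 3.46% of 27025 genes. The letters TTCNNNGAA, the core of the gamma-activated sequence and the same on both strands, were found in 4 of the 7 (Gbp5, Gbp7, Igtp and Irgm2), against 8.13% of all genes. The same 4 held both motifs, against 0.459% of all genes. The 110 bases before the start are printed 5′ to 3′ on the strand of the gene for 5 members. These are Gbp3, which had the largest difference reported below and holds overlapping response elements, Gbp7 with both motifs, Irgm1 with overlapping response elements in the other orientation, and the neighbours Igtp and Irgm2. Capitals mark matches to either motif.
Gbp3 (chr3:142559934-142560043, forward): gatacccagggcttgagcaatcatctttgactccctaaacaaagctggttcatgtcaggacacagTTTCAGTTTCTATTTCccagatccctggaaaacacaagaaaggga
Gbp7 (chr3:142530226-142530335, forward): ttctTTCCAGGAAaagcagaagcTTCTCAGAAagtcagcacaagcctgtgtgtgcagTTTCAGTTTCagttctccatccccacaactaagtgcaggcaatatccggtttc
Irgm1 (chr11:48871421-48871530, reverse): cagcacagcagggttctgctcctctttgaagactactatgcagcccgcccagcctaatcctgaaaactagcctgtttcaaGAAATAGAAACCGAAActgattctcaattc
Igtp (chr11:58199446-58199555, forward): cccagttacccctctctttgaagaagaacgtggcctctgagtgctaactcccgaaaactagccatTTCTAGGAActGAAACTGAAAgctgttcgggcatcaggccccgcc
Irgm2 (chr11:58214867-58214976, forward): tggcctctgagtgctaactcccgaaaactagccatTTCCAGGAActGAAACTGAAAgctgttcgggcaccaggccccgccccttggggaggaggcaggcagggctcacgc
The windows of Igtp and Irgm2 are near copies shifted by 30 bases, with 78 of 80 aligned bases identical and a longest identical run of 38 bases. The response element ended between 15 bases (Irgm1) and 156 bases (Gbp5) before the start, and in Igtp and Irgm2 the gamma-activated sequence lay directly upstream of it. These matches are letters in a window, and binding was not measured. Among 8 other interferon-inducible GTPase genes with a promoter in the table, 4 held the response element and 3 held the gamma-activated sequence.

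**Figure D1:**
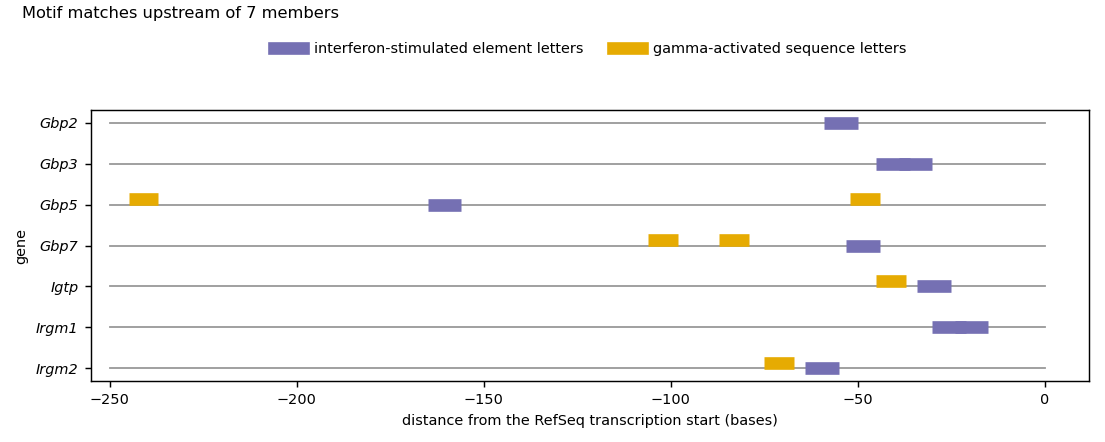
Positions of the letters of the interferon-stimulated response element (purple) and of the gamma-activated sequence (yellow) in the 250 bases before the RefSeq start of 7 members, in bases from the start on the horizontal axis. All 7 genes carry the first motif, 6 of them within the last 64 bases, and 4 carry the second.

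The members were transcribed at modest levels in every library. Recovered read totals, the gene counts behind the normalized values, ran from 6569642 to 11225281 per library, and single members had between 9 reads (Gbp5 in WT library 1AF at 30 weeks) and 197 reads (Irgm1). The counting error alone was thus between 7.12% and 33.3% of a value. Per kilobase of exon, Igtp was highest in WT prostates at 30 weeks, with 24.6 ± 2.28 normalized counts per kb (SD, n = 3, in the table with the KO). Gbp2 followed at 23.2 ± 4.64, Irgm2 at 17.4 ± 3.36, Irgm1 at 15.9 ± 2.41 and Gbp7 at 12.3 ± 1.59 normalized counts per kb. The other members were lower, between 6.89 (Gbp3) and 2.84 (Gbp5) normalized counts per kb. Every pair of neighbours in this order differed by less than the sum of their SDs.

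Elac2 itself and RNA of other tissues are given before the comparisons. In KO at 10 weeks the Elac2 normalized count was 111 to 119, below the 124 to 166 of WT (log2 fold change -0.31, adjusted p = 0.325, limma). In KO at 30 weeks it was 98.4 to 151, which overlapped the WT range of 150 to 194 (log2 fold change -0.43, adjusted p = 0.478, limma). These counts cover the whole gene, of which only exon 8 was removed, and only in Cre-expressing cells. Skeletal muscle markers held 3.77% to 12.2% of the counts of WT libraries at 10 weeks, against 0.0568% to 1.97% in KO and 1.48% to 4.21% in A537T. Seminal vesicle markers held 6.56% to 10.3% of KO counts at 10 weeks and up to 4.64% in WT. At 30 weeks they reached 63229 to 91713 CPM (counts scaled to the same depth) in 4 mutant libraries, which were 4AF and 6AF (both KO), 7AF and 9AF (both A537T). They stayed below 4 CPM in all WT libraries, in 5AF of KO and in 8AF of A537T. Prostate epithelium markers were found in every library, with Sbp, Pbsn and Msmb the most abundant. They held 3.25% of the counts of WT library 10AF at 10 weeks and up to 10.9% in the other WT libraries, against 0.492% to 3.38% in KO libraries, while A537T libraries ranged from 6.79% to 8.96%. At 30 weeks their share was 6.17% to 11.2% in WT, 3.83% to 9.80% in KO and 3.11% to 11.8% in A537T. Several of them ran opposite to the mean of the members over the 18 libraries, with a Pearson r of -0.79 for Cdh1, -0.71 for Epcam and -0.60 for Pbsn, while Sbp was at 0.18. Their part in the level of the members was not tested.

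At 30 weeks in A537T, all 10 members had higher means than in WT, against 49.3% of all genes, with a median log2 fold change of 0.81 and fold changes between 1.40 (Gbp4) and 3.25 (Gbp3). The 3 A537T libraries lay above all 3 WT libraries for 8 of the 10 members, whereas 9.18% of the 14789 genes tested were higher without overlap. None of these differences passed the adjusted threshold of 0.05 in limma, which called 0 of 10 members and 0 of all genes, a percentage called of 0. Without adjustment, 8 of 10 members were at p under 0.05 and higher, against 7.35% of all genes. edgeR on the recovered reads called 0 members and 0 genes. DESeq2 on the same reads called 3 members as higher (Gbp6, Irgm1 and Irgm2), against 2.26% of the genes it tested. limma without A537T library 8AF called 1 member as higher (Gbp6, adjusted p = 0.0271), against 5.03% of all genes. The plot of normalized counts by library shows the A537T libraries at 30 weeks apart from WT in all panels but those of Gbp4 and Gbp5.

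**Figure D2:**
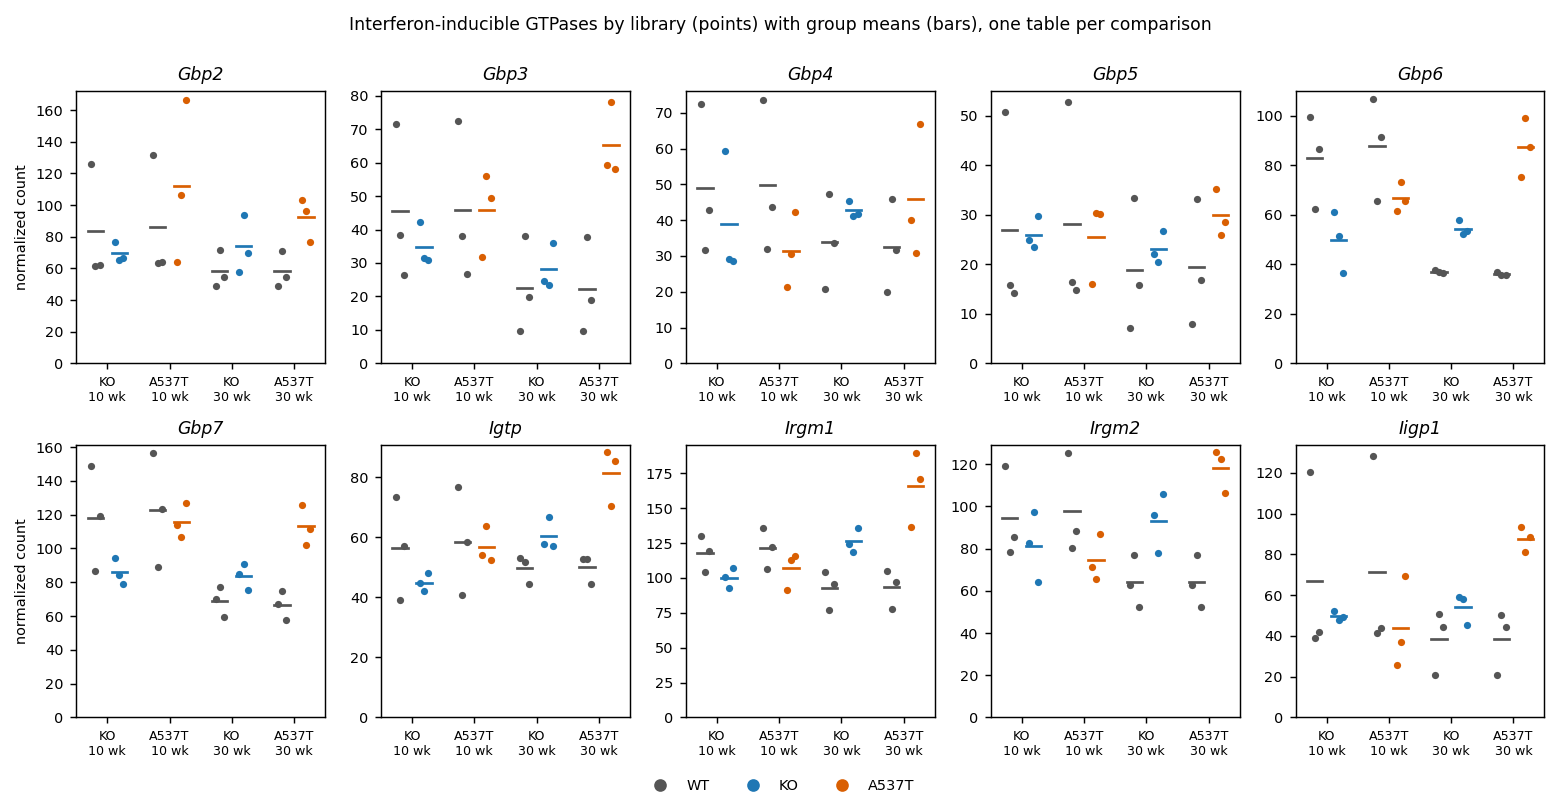
Normalized counts of the 10 members (vertical axes, linear from 0) in each library, with WT in grey, KO in blue and A537T in orange, for the 4 tables along the horizontal axis. Points are libraries and bars are group means of 3. At 30 weeks 8 members are higher without overlap in A537T and 4 in KO, against 9.18% and 7.92% of all genes. At 10 weeks WT library 10AF is the highest WT point in every panel.

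Gbp3 had the largest difference. Its normalized count was 9.62, 37.9 and 18.8 in WT libraries 1AF, 2AF and 3AF, whereas A537T libraries 7AF, 8AF and 9AF had 59.3, 78.1 and 58.1. The groups did not overlap, although the WT libraries spread widely and library 1AF rested on few reads. The log2 fold change was 1.70 ± 0.46 (SE), with adjusted p = 0.272 (limma). It was 1.24 without WT library 1AF and 2.18 without WT library 2AF.

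Gbp6 was the member with the least spread in WT, with an SD of 0.753 normalized counts. These WT values rest on 31 to 46 reads each, and the SD was smaller than counting error alone. The closeness of the WT libraries is therefore not read as a property of the gene. The normalized count of Gbp6 was 36.9, 35.6 and 35.6 in WT and 75.3, 99.3 and 87.6 in A537T. Every A537T library was therefore more than 30 normalized counts above every WT library. The log2 fold change was 1.25 ± 0.19 (SE), a 2.37-fold difference, with an adjusted p of 0.153 in limma, 0.172 in edgeR and 0.00214 in DESeq2. Summed with Gbp10 and Gm43302, the normalized count was 46.5, 45.9 and 35.6 in WT and 77.3, 102 and 92.0 in A537T. The summed groups did not overlap either, and the log2 fold change was 1.07 ± 0.20 (SE), with adjusted p = 0.185 (limma). This sum was chosen after the values were seen.

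Gbp7, like Gbp3 a gene of the chromosome 3 cluster, had a normalized count of 67.4, 74.6 and 57.4 in WT and 126, 102 and 112 in A537T. The groups did not overlap and the log2 fold change was 0.76 ± 0.17 (SE), with adjusted p = 0.236 (limma). Gbp2, a guanylate-binding protein that targets bacterial and parasite vacuoles, had 48.9, 71.1 and 54.4 in WT and 103, 96.4 and 76.7 in A537T. Its groups were separated by less than 6 normalized counts, between WT library 2AF and A537T library 9AF, and its log2 fold change was 0.66 ± 0.21 (SE), with adjusted p = 0.298 (limma).

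Gbp4 and Gbp5 overlapped between the groups. Gbp5, the member tied to the inflammasome, had 8.02, 33.3 and 16.8 normalized counts in WT and 35.2, 26.0 and 28.5 in A537T. WT library 2AF was above A537T libraries 8AF and 9AF, and the log2 fold change was 0.80 ± 0.50 (SE), with adjusted p = 0.498 (limma). Gbp4 had 20.05, 45.9 and 31.7 in WT and 40.2, 30.9 and 66.8 in A537T. Only A537T library 9AF exceeded all WT libraries for Gbp4, and the log2 fold change was 0.49 ± 0.40 (SE), with adjusted p = 0.597 (limma).

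All 4 immunity-related GTPases were higher without overlap in A537T at 30 weeks, against 9.18% of all genes. Iigp1, the effector, had 20.9, 50.5 and 44.5 normalized counts in WT and 93.4, 81.0 and 88.7 in A537T. The A537T libraries were close to each other while WT library 1AF was low, and the log2 fold change was 1.25 ± 0.34 (SE), with adjusted p = 0.272 (limma).

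Of the regulatory members, Irgm2 had 62.6, 76.8 and 52.4 normalized counts in WT and 126, 122 and 106 in A537T. Its log2 fold change was 0.89 ± 0.19 (SE), with adjusted p = 0.221 in limma and 0.0311 in DESeq2. Irgm1 had 105, 78.0 and 97.0 in WT and 137, 190 and 171 in A537T. All 3 A537T libraries stood more than 30 normalized counts above WT, and the log2 fold change was 0.82 ± 0.19 (SE), with adjusted p = 0.236 in limma and 0.0306 in DESeq2. Igtp had 52.9, 52.8 and 44.5 in WT and 88.4, 70.4 and 85.4 in A537T, with a log2 fold change of 0.69 ± 0.18 (SE) and adjusted p = 0.272 (limma). Since Igtp and Irgm2 share sequence and annotated exons, their counts are not fully separate.

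At 30 weeks in KO, all 10 members again had higher means than WT, against 49.1% of all genes, with smaller differences. The median log2 fold change was 0.46, and the values ran from 0.28 (Igtp) to 0.56 (Iigp1). The KO libraries lay above all WT libraries for 4 of the 10 members (Gbp6, Igtp, Irgm1 and Irgm2), against 7.92% of the 14729 genes tested. limma called 0 of 10 members and 0 of all genes, and the lowest adjusted p of a member was 0.407 (Gbp6). Unadjusted, 3 of 10 members were at p under 0.05 and higher, against 5.56% of all genes. Neither edgeR, with 0 genes called, nor DESeq2, with 1.32% of genes called as higher, called a member. The WT libraries are those of the A537T comparison, so the count of 10 of 10 in each line rests on the same 3 WT mice.

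Gbp6 was 57.8, 52.1 and 53.5 normalized counts in KO libraries 4AF, 5AF and 6AF, and 37.8, 36.9 and 36.6 in WT. The KO values lay above WT, and the log2 fold change was 0.54 ± 0.18 (SE), with unadjusted p = 0.0210 (limma). The SD was 2.96 normalized counts in KO and 0.616 in WT, on 32 to 71 reads per library. Both SDs were smaller than counting error alone, so the tight grouping does not measure the spread between mice. With Gbp10 and Gm43302 added, the normalized count was 83.6, 74.9 and 57.0 in KO and 45.8, 46.1 and 36.6 in WT, which gave a log2 fold change of 0.72 ± 0.22 (SE) with adjusted p = 0.399 (limma). In KO library 4AF this sum included 25.8 normalized counts of Gbp10, and in library 5AF it included 22.0 of Gm43302.

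Irgm1 was 124, 119 and 136 normalized counts in KO and 105, 77.2 and 96.03 in WT, with a log2 fold change of 0.45 ± 0.16 (SE) and adjusted p = 0.425 (limma). Irgm2 was 95.9, 77.8 and 106 in KO and 62.7, 77.2 and 52.5 in WT, with a log2 fold change of 0.54 ± 0.21 (SE) and adjusted p = 0.437 (limma). KO library 5AF exceeded WT library 2AF by less than 1 normalized count of Irgm2. Igtp was 57.8, 66.8 and 57.0 in KO and 53.1, 51.8 and 44.5 in WT, separated by less than 4 normalized counts.

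The other 6 members overlapped between KO and WT at 30 weeks. For Gbp3, KO had 24.6, 23.5 and 36.1 normalized counts and WT had 9.65, 38.0 and 19.8. WT library 2AF was the highest of the 6 libraries, and the log2 fold change was 0.48 ± 0.50 (SE), less than its error. Gbp5 behaved alike, with 22.1, 20.6 and 26.75 in KO and 7.24, 33.4 and 15.8 in WT (log2 fold change 0.51 ± 0.53, SE). Without WT library 1AF the median over members fell to 0.26, and Gbp5 stood at -0.0036 on the log2 scale, so 9 of 10 members were then higher.

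**Figure D3:**
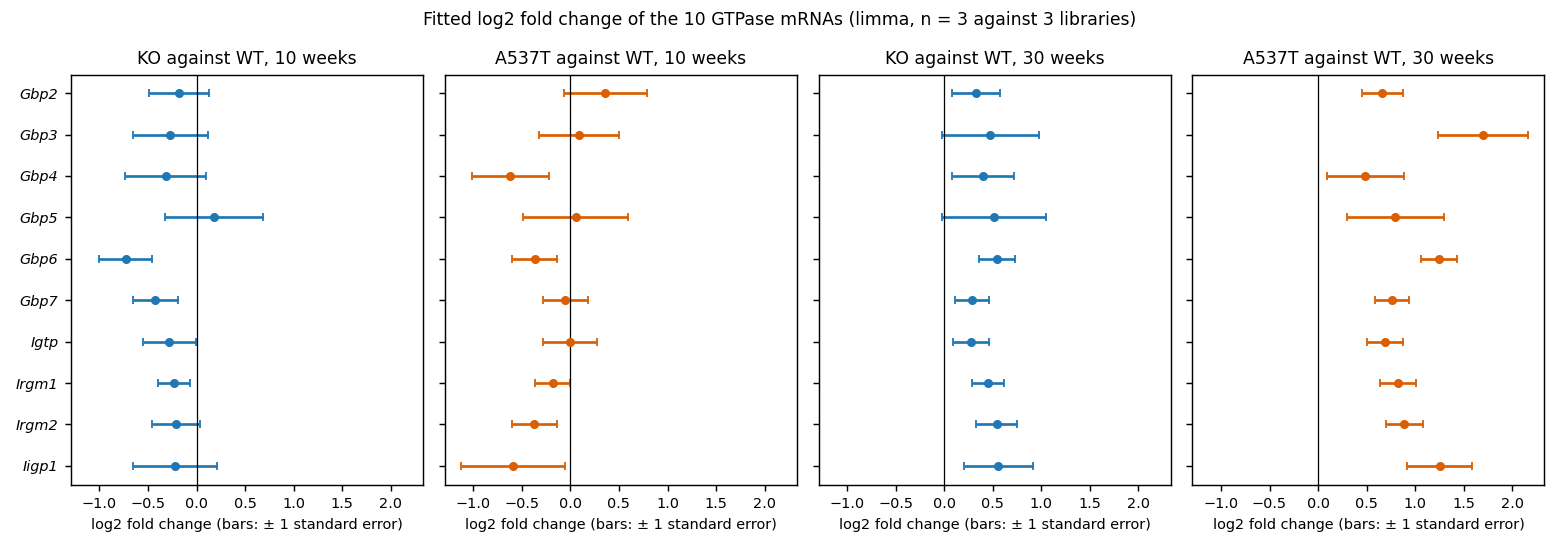
Log2 fold change of each member (horizontal axis) against the WT of the same age, with bars of 1 standard error from limma on 3 against 3 libraries. In the 30-week panels all 10 points lie to the right of 0, with medians of 0.46 in KO and 0.81 in A537T, and at 10 weeks most lie near or to the left of 0.

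At 10 weeks the members were not higher. In KO, 9 of 10 had lower means than WT, with a median log2 fold change of -0.25, and in A537T 7 of 10 were lower, with a median of -0.12, against 50.6% and 48.5% of all genes. Only Gbp6 in KO was lower without overlap and none was higher, against 14.3% and 11.7% of the 15089 genes tested there, and 0 of 10 members were without overlap in A537T, against 6.34% of 15131 genes lower and 5.58% higher. limma and edgeR called 0 genes in either comparison, and DESeq2 called 4.75% of genes in KO and 0.608% in A537T but no member. Unadjusted, 1 member was at p under 0.05 in KO and 0 in A537T, against 11.5% and 3.67% of genes in the lower direction. Scaling every library to the same total moved the median log2 fold change of all genes from about 0 to 0.20 in KO and 0.15 in A537T, and the medians over members then became -0.04 and 0.02.

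WT library 10AF carried much of the 10-week pattern. Every member was above its mean WT log2 value in this library, by 0.58 on average, whereas WT library 11AF was below it for every member. Iigp1 was 120, 39.1 and 41.8 normalized counts in WT libraries 10AF, 11AF and 12AF, and 52.4, 48.0 and 49.2 in KO libraries 13AF, 14AF and 15AF. Thus KO lay above 2 of the 3 WT libraries and well below the third. Without library 10AF the median log2 fold change over members was -0.02 in KO and 0.03 in A537T, and 4 and 5 members were higher. Endothelial markers summed to 156 CPM in library 10AF and to 110 to 114 in the other WT libraries, macrophage markers to 144 against 114 to 134, and T and NK cell markers to 3.91 against 2.86 to 4.69. Seminal vesicle markers held 4.64% of the counts of 10AF, against 1.77% in 11AF and 0.000808% in 12AF. Prostate epithelium markers held 3.25% against 10.6% and 10.9%, and skeletal muscle markers 3.77% against 6.27% and 12.2%. Their part in the level of the members in this library was not tested. limma without library 10AF called 19.2% of all genes in KO, but none of the 10 members.

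Gbp6 in KO at 10 weeks was 61.0, 51.5 and 36.6 normalized counts, against 99.8, 62.5 and 86.7 in WT. The groups were separated by less than 2 normalized counts, between WT library 11AF and KO library 13AF, and the log2 fold change was -0.73 ± 0.28 (SE), with adjusted p = 0.231 (limma). The sum with Gbp10 and Gm43302 was 61.9, 74.9 and 36.6 in KO and 109, 86.6 and 139 in WT, again without overlap. Gbp2 spread most in A537T at 10 weeks, with 63.8, 107 and 166 normalized counts against 132, 63.1 and 63.9 in WT. Both groups thus held low and high libraries, and the log2 fold change of 0.36 ± 0.42 (SE) was less than its error.

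The signed log2 fold change against WT was higher at 30 than at 10 weeks for all 10 members in each line, against 52.9% of 14295 genes in KO and 49.6% of 14292 genes in A537T. It exceeded the 10-week value by 0.33 to 1.27 on the log2 scale in KO (median 0.71) and by 0.30 to 1.85 in A537T (median 1.05). In size, regardless of sign, the 30-week value was the smaller one for Gbp6, Gbp7 and Igtp in KO and Gbp4 in A537T. In a two-sided exact permutation of genotype within each age, with 400 arrangements per member, 3 members in KO and 4 in A537T were at p under 0.05 before adjustment and higher at 30 weeks, against 4.59% and 4.68% of all genes. Gbp6 in KO reached an exact p of 0.005, the smallest these arrangements can give, and Irgm1 in KO, Gbp6 in A537T and Irgm2 in A537T reached 0.01. With Benjamini-Hochberg adjustment over all genes of a line, no gene was below 0.05, and the lowest adjusted exact p of a member was 0.357 in KO and 0.342 in A537T. The difference for Gbp6 was 1.27 in KO and 1.61 in A537T, that for Irgm1 in KO was 0.68 and that for Irgm2 in A537T was 1.261 on the log2 scale. WT library 11AF, at 10 weeks, was below the mean WT log2 value for every member. Leaving it out therefore enlarges the difference of every member by construction. Without it, 5 members in KO and 6 in A537T were at exact p under 0.05 before adjustment and higher, against 4.54% and 4.85% of all genes. These larger counts add no evidence for a difference between ages. Leaving out WT library 10AF turned Gbp5 in KO to -0.23 and Gbp2 in A537T to -0.05. The tissue mix also differed between the ages. Skeletal muscle markers held 3.77% to 12.2% of WT counts and 0.0568% to 1.97% of KO counts at 10 weeks, but at most 0.0686% in any library at 30 weeks. Their part in the difference between ages was not tested.

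**Figure D4:**
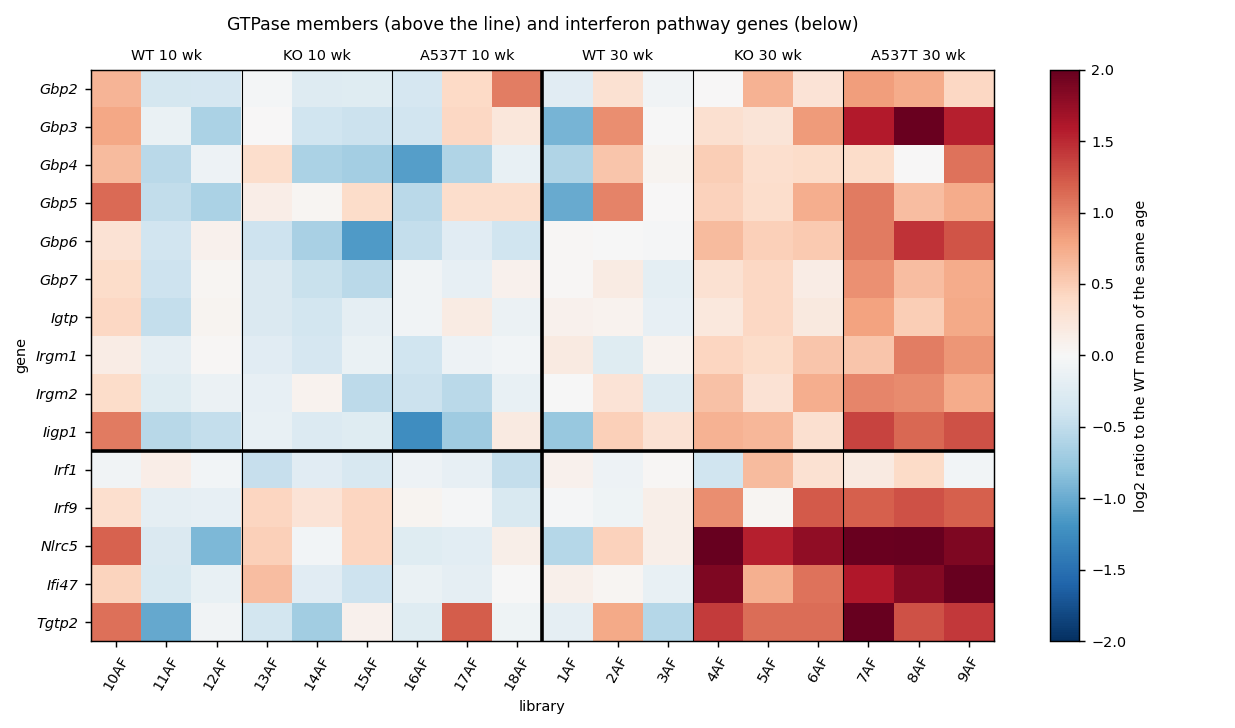
Log2 ratio of each library to the WT mean of its age (red higher, blue lower, colour scale from -2 to 2) for the 10 members, above the thick horizontal line, and for 5 genes of the interferon pathway or family, below it. Columns are the 18 libraries with the 10-week groups left of the thick vertical line, and the 6 mutant libraries at 30 weeks are red for nearly every gene, with 10 of 10 members above the mean of the WT log2 values in each.

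Library by library, the mean log2 ratio of the members to WT at 30 weeks was 0.95, 0.90 and 0.95 in A537T libraries 7AF, 8AF and 9AF, and 0.41, 0.43 and 0.47 in KO libraries 4AF, 5AF and 6AF. In each of these 6 libraries all 10 members exceeded the mean of the WT log2 values. On the count scale Gbp2 in 4AF and Gbp4 in 8AF were slightly below the WT mean count. Libraries 5AF and 8AF, which held almost no seminal vesicle RNA, stood at 0.43 and 0.90. With the seminal vesicle markers as a covariate in limma, the median log2 fold change over members was 0.41 in KO and 0.86 in A537T. All 10 members were higher in each line in that fit, and none was called. Beyond this fit, the part of that RNA in these values was not tested. The WT libraries at 30 weeks stood at -0.32 (1AF), 0.35 (2AF) and -0.03 (3AF). Over the 18 libraries the members varied together, with Pearson correlations of their log2 ratios to the WT mean between 0.43 and 0.94 over the 45 pairs (median 0.74). These points share libraries and groups, so the correlations are a description.

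Of 17 other interferon-inducible GTPase genes, from a list set for the family, 10 passed the filter at 30 weeks. Of these, 9 had higher means in each line, against 49.3% of all genes in A537T and 49.1% in KO. The median log2 fold change was 1.261 in A537T and 0.71 in KO, against -0.01 over all genes in both, and limma called none. In A537T, Ifi47, an immunity-related GTPase, stood at 1.88 ± 0.34 (SE; 7.93 against 32.1 mean normalized counts), Tgtp2, an effector of the same family, at 1.65 ± 0.44 and Gvin1, a very large interferon-inducible GTPase, at 1.46 ± 0.28 on the log2 scale. Their adjusted p-values ran from 0.182 to 0.272 in limma. DESeq2 called 3 genes of the list, while it called 2.26% of the genes it tested as higher. Mx1 was at -0.06 ± 0.28 in A537T and -0.46 ± 0.25 in KO, so it did not share the direction of the other genes of this list. Mx2 was at 2.50 ± 0.78 in A537T, from means of 6.19 and 34.6 normalized counts with overlapping libraries.

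The ligand was nearly absent from the libraries. Ifng, which encodes interferon-gamma itself, had 0 reads in 17 of 18 libraries, which allows up to 0.272 to 0.457 CPM in each, and 1 read in KO library 5AF at 30 weeks. These limits cover counting error only. The receptor chains were detected in A537T at 30 weeks, with log2 fold changes of -0.08 ± 0.19 (SE) for Ifngr1 and -0.29 ± 0.27 for Ifngr2.

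Of 6 signal transduction genes, all 6 had higher means in A537T and 5 in KO at 30 weeks, against 49.3% and 49.1% of all genes. The median log2 fold change was 0.20 in A537T and 0.13 in KO. In KO the values ran from -0.47 to 0.73, and the gene at -0.47 was below WT in every KO library, without overlap. None of the 6 was called by limma. Irf9, a DNA-binding factor of the interferon response, was 173, 165 and 190 normalized counts in WT and 404, 428 and 402 in A537T. Its log2 fold change was 1.22 ± 0.11 (SE), with adjusted p = 0.137, the lowest of all genes in this comparison (limma). In KO it was 332, 178 and 411, so library 5AF lay within the WT range and the log2 fold change of 0.73 ± 0.29 (SE) came with overlapping groups. In A537T the kinase Jak1 was at a log2 fold change of 0.03 ± 0.13 (SE), and the factor Irf1 at 0.17 ± 0.15.

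Of the 18 other interferon-gamma targets, 13 passed the filter in each 30-week table, and none was called by limma. Of the 13, 12 were higher in A537T and 11 in KO, against 49.3% and 49.1% of all genes. The median log2 fold change was 0.60 in A537T (range -0.36 to 1.99) and 0.16 in KO (range -0.39 to 1.86). Nlrc5, the transactivator of MHC class I genes, was at 173, 192 and 160 normalized counts in A537T and 200, 122 and 143 in KO against 27.3 to 59.6 in WT. Its log2 fold change was 1.99 ± 0.27 (SE; adjusted p = 0.153, limma) in A537T and 1.86 ± 0.31 (adjusted p = 0.254, limma) in KO. Ciita, the MHC class II transactivator, was at 1.32 ± 0.42 and 1.08 ± 0.38, and Tap1, a peptide transporter subunit, at 0.81 ± 0.18 and 0.56 ± 0.16 in A537T and KO. Tap2, its partner, was at 0.06 ± 0.15 and 0.10 ± 0.14, so the pair did not move alike. Of 4 inhibitors of interferon signalling, 3 passed the filter at 30 weeks. All 3 had higher means in A537T, with a median log2 fold change of 1.07, and 2 had higher means in KO, with a median of 0.17. Usp18 was at 1.143 ± 0.30 in A537T and -0.06 ± 0.42 in KO, whereas Ptpn2 was at 0.18 ± 0.14 and 0.17 ± 0.16.

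Among 14057 genes outside the members, those with the profile over the 18 libraries closest to the members' mean were Adamts5, an extracellular matrix protease (Pearson r = 0.929), Arhgdib, a GTPase regulator of blood cells (0.928), and Nid1, a basement membrane protein (0.928). Gm38346, C1s1, Pik3cd, Gsn, Ms4a6c and Col6a6 were also among the 10 closest, with r between 0.907 and 0.888. In A537T at 30 weeks Adamts5 was at 1.11 and Nid1 at 0.69 on the log2 scale, so genes of stroma and of blood cells were among the closest.

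In a whole tissue, more cells of a type and more RNA per cell cannot be told apart, and markers of other cell types moved with the members in A537T. Of 9 macrophage markers, all 9 had higher means in A537T at 30 weeks, against 49.3% of all genes. Their sum was 174, 267 and 124 CPM in libraries 7AF, 8AF and 9AF against 92.8 to 104 in WT. B and plasma cell markers summed to 456, 1043 and 234 CPM against 71.6 to 115 in WT. All 4 of the 9 B and plasma cell markers that passed the filter were higher without overlap, against 9.18% of all genes. They were led in level by Ighm, Igkc and Jchain. T and NK cell markers summed to 7.90 to 12.2 CPM against 5.28 to 7.43, and only 2 of the 14 passed the filter. Endothelial markers summed to 60.9 to 90.9 CPM against 36.0 to 74.9.

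Library 8AF had the highest macrophage, B and plasma cell and T and NK cell sums of the A537T libraries. Its mean ratio for the members was 0.90, close to the 0.95 of 7AF and of 9AF. In KO at 30 weeks the B and plasma cell sum was 99.8 to 110 CPM against 72.0 to 116 in WT, and macrophage markers were 88.7, 177 and 107 against 91.6 to 103. KO library 4AF had the lowest macrophage sum of the 6 libraries and a mean ratio for the members of 0.41. Library 5AF had the highest macrophage sum and a mean ratio of 0.43. Over the 18 libraries, markers that passed the filter in every comparison varied with the mean of the members. Pearson r was 0.44 to 0.80 for macrophage markers, 0.56 to 0.71 for B and plasma cell markers and 0.46 to 0.72 for endothelial markers. Of the 14 T and NK cell markers at 30 weeks, 3 had no reads in WT library 2AF and 3 had none in KO library 4AF. WT library 3AF, KO library 5AF and A537T library 8AF each had 1 such marker at 0. In WT, library 1AF had the lowest endothelial sum, 36.0 CPM, and the lowest Gbp2, Gbp3, Gbp4, Gbp5 and Iigp1, but the highest Irgm1. The part of any of these cell types in the level of the members was not tested.

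**Figure D5:**
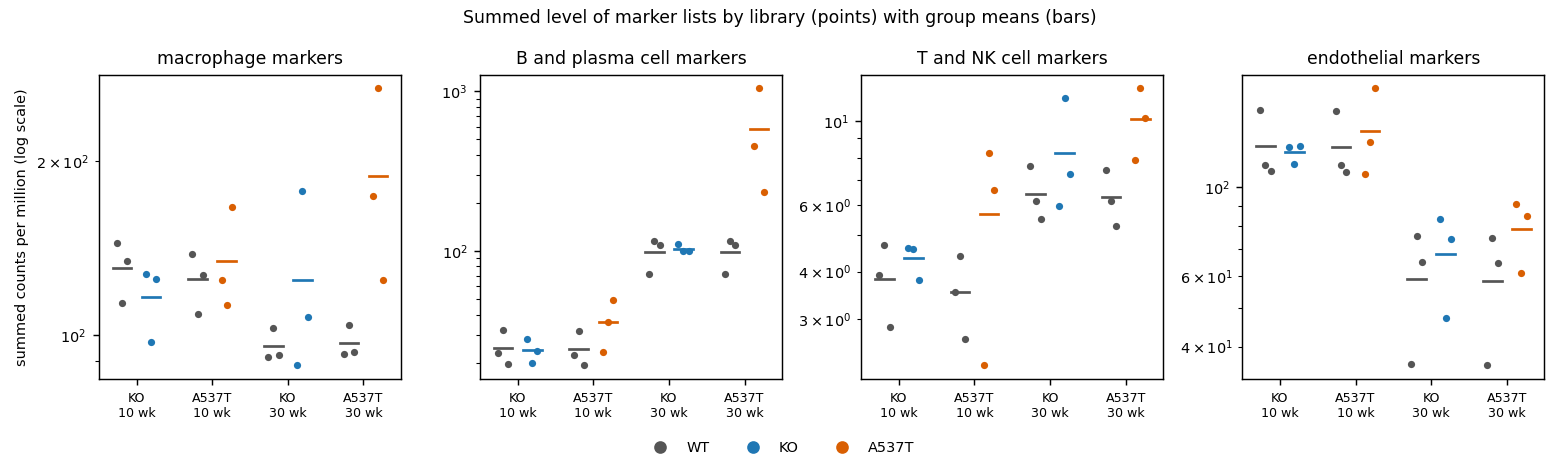
Summed CPM, counts scaled to the same depth (vertical axes, log scale) of 4 marker lists in each library, with WT in grey, KO in blue and A537T in orange and bars for group means of 3. At 30 weeks B and plasma cell markers are 234 to 1043 CPM in A537T and 99.8 to 110 in KO, against 71.6 to 116 in WT.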

How the data were processed

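Total RNA of ventral and lateral prostate lobes was sequenced as stranded libraries, 3 per group. Per the labels and the study's methods, the authors trimmed reads with Trim Galore 0.4.1 and cutadapt 1.18, aligned them with STAR 2.7.3a to GRCm38 (nuclear copies of mitochondrial DNA masked), counted them per gene with Salmon and normalized them with DESeq2 1.26. The deposited signal values are normalized counts, which the authors obtained by dividing counts by a library size factor, in 4 tables of 6 libraries that were normalized separately. Files of the authors' own fold changes and s-values were not used. Columns carry library labels only and were assigned to groups, not to replicates, through the table they stand in and the WT libraries, which appear in both tables of their age.

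log2(normalized count + 1) of genes with a mean of at least 10 was fitted within each table with limma 3.58.1 (mean trend) in R 4.3.3, with Benjamini-Hochberg adjustment over all genes tested and a threshold of 0.05. The design has 3 against 3 libraries, for which an exact permutation test of a single gene cannot go below 0.1. The difference between ages was tested by permuting genotype labels exactly, separately at each age, and its p-values were set against the same test over all genes, which was added after the values were seen. Replicates are separate mice. A standard error (SE) comes from the fit, and an SD from the libraries. Whole reads were recovered by dividing each column by the value of 1 read. In each library 99.97% or more of the values came out whole within 0.01 read, and median depth was 8586877 reads. Recovered reads of a gene differed slightly between the pair of tables that hold the same WT library, so they are whole estimated counts rather than raw reads. edgeR 4.0.16 and DESeq2 1.42.0 were run on these reads as alternatives. Other alternatives were a pseudocount of 8, minimum means of 1 and 100, other scalings, no mean trend, a tissue marker covariate and leaving out each library. The fit was tested on simulated data. Gene models were those of GENCODE (GRCm38), and promoters those of RefSeq.

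All 10 members were to be named, with Elac2, genes of the interferon lists, the 3 most abundant genes of each marker list and the 10 genes closest in profile. A few genes of these lists are not reported here. The members and lists were chosen with earlier results of these data known.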

Additional observations from a re-analysis of the deposited data

Results flagged for a closer look

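Gbp6 in KO differed from WT in opposite directions at the 2 ages. By normalized count, every KO library was below every WT library at 10 weeks and above every WT library at 30 weeks. The gap at 10 weeks was narrow, with 61.0 normalized counts in KO library 13AF and 62.5 in WT library 11AF. Scaled to library totals, these groups overlapped, since 13AF had 8.20 CPM and 11AF had 7.33. The log2 fold change was -0.73 at 10 weeks and 0.54 at 30 weeks, a difference of 1.27, with an exact permutation p of 0.005, or 0.357 after Benjamini-Hochberg adjustment over all genes, which is not below the threshold. Gbp6 shares most of its sequence with Gbp10 and Gm43302, and their sum had the same directions at both ages, with log2 fold changes of -0.97 and 0.72.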

How the results depend on the processing

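Under every alternative run, the medians over the 10 members at 30 weeks stayed positive (KO 0.26 to 0.60, A537T 0.72 to 0.94), while at 10 weeks the A537T median turned to 0.02 with scaling to the total and 0.03 without WT library 10AF, where the KO median was -0.04 and -0.02. With the skeletal muscle markers as a covariate the medians at 10 weeks were -0.46 in KO and -0.58 in A537T. With the seminal vesicle markers as a covariate the medians at 30 weeks were 0.41 in KO and 0.86 in A537T. DESeq2 called 3 members as higher in A537T at 30 weeks, against 2.26% of the genes it tested, while limma and edgeR called 0. Leaving out each library gave 0 to 1 (Gbp6 without 8AF, adjusted p = 0.0271, limma, where 5.03% of all genes were called as higher). All reversals of single members apart from leaving out libraries were at 10 weeks. In KO these were Gbp2 at 0.0296 (scaled to the total), Irgm2 at 0.10 and Gbp5 at -0.34 (muscle covariate), and Gbp5 at -0.0496 (edgeR) and -0.0445 (DESeq2). In A537T these were Gbp7 at 0.0853 and Igtp at 0.13 (total), Gbp5 at -0.0388 (quantile), Gbp3 at -0.64, Gbp2 at -0.52 and Gbp5 at -0.89 (muscle covariate), and Gbp5 at -0.13 by edgeR and DESeq2. The cause was not tested. Leaving out each library gave ranges across 0 for Gbp3 (-0.59 to 0.11), Gbp2 (-0.35 to 0.16), Iigp1 (-0.50 to 0.29) and Gbp5 (-0.14 to 0.75) in KO at 10 weeks, for Gbp3 (-0.23 to 0.47), Gbp7 (-0.26 to 0.14), Igtp (-0.24 to 0.21) and Gbp5 (-0.26 to 0.62) in A537T at 10 weeks, and for Gbp5 in KO at 30 weeks (-0.00355 to 1.03). For the difference between ages it gave ranges of -0.23 to 0.85 for Gbp5, 1.07 to 1.46 for Gbp6, 0.53 to 0.92 for Gbp7, 0.35 to 0.80 for Igtp and 0.56 to 0.78 for Irgm1 in KO, and of -0.0487 to 0.64 for Gbp2, 1.46 to 1.81 for Gbp6, 0.62 to 1.03 for Gbp7, 0.48 to 0.93 for Igtp, 0.88 to 1.136 for Irgm1 and 1.07 to 1.40 for Irgm2 in A537T. With the length of the longest transcript, levels per kb at 30 weeks became 7.48 for Gbp4, 5.01 for Gbp5, 8.74 for Gbp6, 24.2 for Irgm1 and 12.4 for Iigp1. No paired analysis was possible because the columns carry no replicate numbers.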
